A study of Rattus norvegicus with 8 samples.

Results

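The miR-17~92 and miR-106b~25 clusters are groups of neighbouring microRNA (miRNA) hairpins, each group cut from a single primary transcript. Each hairpin gives a mature miRNA from both of its arms, and the less abundant one is called the passenger arm here (named with * or by its 3p or 5p side). Members were every row of the deposited table named for miR-17, miR-18a, miR-19a, miR-19b, miR-20a, miR-92a, miR-106b, miR-93 or miR-25. This gave 20 of 620 mature miRNAs, namely the most abundant arm of each of the 9 hairpins of the clusters and 11 other arms, of which 9 are the passenger arms of these hairpins and 2 belong to related hairpins of the X chromosome. The abundant arms were rno-miR-17-5p, rno-miR-18a, rno-miR-19a, rno-miR-20a, rno-miR-19b and rno-miR-92a of miR-17~92, and rno-miR-106b, rno-miR-93 and rno-miR-25 of miR-106b~25 (the prefix, for rat, is left out below).

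A miRNA guides the silencing complex to mRNAs mainly through its seed, the bases 2 to 8 from its 5′ end, so that miRNAs with the same seed share many targets. The miR-17~92 cluster is transcribed under Myc and E2F factors, drives cell proliferation, and is known for its oncogenic activity. In the kidney it is needed for the proliferation of nephron progenitors and promotes cyst growth in polycystic disease. The miR-106b~25 cluster lies in an intron of Mcm7, a subunit of the helicase that opens DNA for replication, and shares its seeds with miR-17~92.

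The data were small RNA read counts from whole kidney tissue of 8 male Big Blue transgenic Fisher 344 rats, which carry a bacterial reporter gene for mutations. From 6 weeks of age, 4 rats received aristolochic acid (AA), a nephrotoxic carcinogen of Aristolochia plants, given as the sodium salt by gavage (10.0 mg/kg in a volume of 4 ml/kg), and 4 controls received 0.9% sodium chloride, each 5 times a week. The protocol gives 12 weeks of dosing, whereas the description of the rats numbered 1, 2, 3 and 4 of each group gives 12, 13, 14 and 15 weeks, with an age of 18 weeks for all. The labels describe the regimen as one that induces kidney tumors, and they do not say whether the pieces sequenced held tumor tissue.

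The libraries held 13412373 to 15616670 counts. The kidney tubule miRNAs counted below differed widely in level. Over all rats miR-30a was at 1275651 to 1969116 normalized counts and miR-192 at 205633 to 1124303. miR-194 was at 11305 to 36274 and miR-204 at 213 to 588. Both rats numbered 4 stood apart for many values below. In whole tissue, more cells of a type and more RNA per cell cannot be told apart.

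The mature sequences of the 9 most abundant arms are shown, since the results divide by cluster and by seed. They are from RefSeq (GRCr8), in which all 20 member rows were matched, and are written 5′ to 3′ with the seed in capitals. The miR-17~92 arms follow in their order along the transcript.
miR-17-5p: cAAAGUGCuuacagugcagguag
miR-18a: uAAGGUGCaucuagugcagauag
miR-19a: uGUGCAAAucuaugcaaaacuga
miR-20a: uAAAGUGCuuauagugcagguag
miR-19b: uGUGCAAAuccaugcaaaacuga
miR-92a: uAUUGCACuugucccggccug

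The miR-106b~25 arms carry only seeds that miR-17~92 also has.
miR-106b: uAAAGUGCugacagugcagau
miR-93: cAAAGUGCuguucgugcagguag
miR-25: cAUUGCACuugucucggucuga

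The 9 arms thus hold 4 seeds. AAAGUGC is in miR-17-5p, miR-20a, miR-106b and miR-93, AAGGUGC in miR-18a, GUGCAAA in miR-19a and miR-19b, and AUUGCAC in miR-92a and miR-25. No other miRNA of the table had the seed of miR-18a. The site in an mRNA that pairs with all 7 seed bases reads GCACUUU for the miR-17-5p seed, GCACCUU for miR-18a, UUUGCAC for miR-19 and GUGCAAU for miR-92a.

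In GRCr8, the mature sequences of miR-17~92 lie at chr15:98587861-98588622 on the plus strand. They span 762 bases and lie in no gene other than the miRNA genes of the RefSeq table. Those of miR-106b~25 lie at chr12:22156652-22157123 on the minus strand, span 472 bases and are inside Mcm7, on the same strand. A related cluster on the X chromosome, which starts with the hairpin of miR-106a and ends with that of miR-363, has 5 hairpins and is called the miR-106a cluster here. Its hairpins Mir106a, Mir19b2 and Mir92a2 give mature sequences identical to miR-17-5p, miR-19b and miR-92a, so that the counts of these 3 cannot be assigned to a chromosome. The sequences of miR-18a, miR-19a and miR-20a come from chromosome 15 alone. miR-19a and miR-19b differ at 1 base, U11C, and miR-17-5p and miR-20a at 2 bases, C1U and C12U (counted from the 5′ end of the first named). Counts within these pairs may include reads of the other member, because the handling of reads that match several miRNAs is not given in the sources used here.

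The question was whether long-term AA treatment changed these miRNAs in the kidney. miR-18a rose 2.24-fold and was the only member up-regulated by the criterion used, an adjusted p under 0.05 and a fold change over 1.5 (edgeR quasi-likelihood test, Benjamini-Hochberg adjustment over 620 miRNAs). Of all miRNAs, 5.81% were up-regulated and 3.23% down-regulated, 9.03% together, so that 1 of 20 members called is no larger a share than the background. The levels of miR-18a, miR-19a, miR-20a and miR-19b were higher in every AA-treated rat than in every control, against 9.68% of all miRNAs, and no abundant arm was lower in every AA-treated rat, against 6.61%. These 4 had an unadjusted p under 0.05, against 13.9% of all miRNAs with such a p in this direction. Among the 305 miRNAs with at least 10 counts in every rat, which hold all 9 abundant arms, 7.87% were up-regulated and 14.1% were higher in every AA-treated rat. The other 5 most abundant arms, including all 3 of miR-106b~25, overlapped between the groups. Without both rats numbered 4, 6 of the 9 arms did not overlap (miR-17-5p and miR-106b in addition). With total counts the number was also 6 (miR-17-5p and miR-92a in addition). The share of all miRNAs was not computed for either setting, so neither 6 can be set against the percentages above. Groups of fewer rats separate more readily by chance. Total counts shifted miRNAs upward in general, with a median of 0.31 in place of 0.05 (log2).

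**Figure D1:**
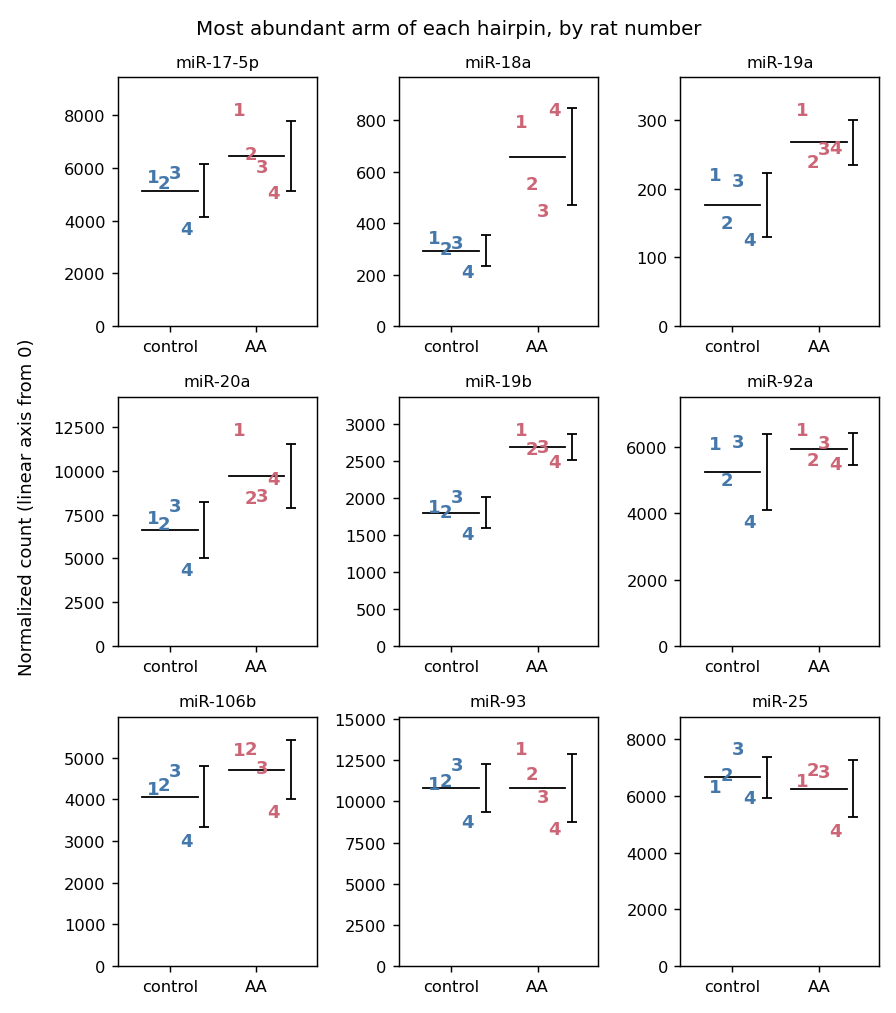
Normalized counts (vertical axes, linear from 0) of the most abundant arm of the 9 hairpins in each rat, printed as its number, in control (blue) and AA-treated (red) rats, with the group mean (line) and SD (bar). miR-18a, miR-19a, miR-20a and miR-19b do not overlap between groups, and control rat 4 is the lowest control for all 9.

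miR-18a, the member with a seed of its own, was at 343, 301, 324 and 210.2 normalized counts in control rats 1 to 4, and at 792, 553, 449.7 and 841 in AA-treated rats 1 to 4. The lowest AA-treated rat was above the highest control, and the AA-treated rats differed more among themselves than the controls did. The log2 fold change was 1.16 ± 0.26 (SE, n = 4 per group), with an adjusted p of 0.0123 by edgeR. Without both rats numbered 4 it was 0.90, with an adjusted p of 0.0412.

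miR-19a and miR-19b are the members best known for the oncogenic activity of the cluster in lymphoma. miR-19b was at 1875, 1807, 2015 and 1520.0 normalized counts in controls and at 2924, 2659.7, 2688 and 2492 in AA-treated rats. The lowest AA-treated rat was well above the highest control, and the AA mean was 1.49 times the control mean, just under the fold criterion. The log2 fold change was 0.58 ± 0.18 (SE), with an adjusted p of 0.0678 by edgeR. With the rat numbers as a replicate block the adjusted p was 0.0335, at a log2 fold change of 0.58.

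miR-19a was at 220.4, 150.5, 211 and 125 normalized counts in controls and at 314, 238, 257 and 259 in AA-treated rats, with no overlap. Its ratio was 1.51, with a log2 fold change of 0.59 ± 0.25 (SE) and an adjusted p of 0.168 by edgeR.

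miR-20a and miR-17-5p share a seed whose known targets include the cell cycle inhibitor Cdkn1a. miR-20a, the most abundant arm of its cluster, was at 7305, 6938, 7973 and 4334 normalized counts in controls and at 12335, 8440.5, 8549 and 9511 in AA-treated rats. All AA-treated rats were above all controls, but rat 2 was near control rat 3. The log2 fold change was 0.55 ± 0.22 (SE), with an adjusted p of 0.156 by edgeR, and without both rats numbered 4 it was 0.41.

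miR-17-5p was at 5659.6, 5442, 5789 and 3664 normalized counts in controls and at 8191, 6503, 6020.3 and 5062 in AA-treated rats. AA-treated rat 4 was below 3 controls, so the groups overlapped (log2 fold change 0.33 ± 0.21 SE, adjusted p = 0.376, edgeR). Without both rats numbered 4 they did not overlap, at a log2 fold change of 0.31 and an adjusted p of 0.329 by edgeR.

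miR-92a, the last hairpin of the transcript and known for its action in vessels, was at 6089, 4986, 6151 and 3729 normalized counts in controls and at 6515, 5589.5, 6114 and 5488 in AA-treated rats. Apart from control rat 4, the values of the groups lay close together (log2 fold change 0.18 ± 0.20 SE, adjusted p = 0.594, edgeR).

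The 3 arms of miR-106b~25 did not pass the test. miR-106b, which like miR-17-5p and miR-93 is known to lower Cdkn1a, was at 4262, 4337, 4689 and 2996 normalized counts in controls and at 5188, 5201, 4763 and 3695 in AA-treated rats. The log2 fold change was 0.21 ± 0.20 (SE), with an adjusted p of 0.527 by edgeR. AA-treated rats 1 to 3 were above all controls, whereas rat 4 was below control rats 1, 2 and 3. Without both rats numbered 4 the log2 fold change was 0.20.

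miR-93, the most abundant of the 9 arms, was at 11041, 11242, 12239.6 and 8725 normalized counts in controls and at 13154, 11654, 10242 and 8294 in AA-treated rats. Both the highest and the lowest value were of AA-treated rats, and the means of 10812 ± 1487 and 10836 ± 2070.2 (SD, n = 4) were nearly equal. The log2 fold change was 0.00 ± 0.19 (SE), with an adjusted p of 0.988 by edgeR. The sign of this difference turned under several settings, as given in the closing section.

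miR-25, which with miR-92a is known to repress the pro-apoptotic gene Bcl2l11 (Bim), was at 6314, 6728, 7635 and 5922 normalized counts in controls and at 6533, 6898, 6827 and 4757 in AA-treated rats. AA-treated rats 1 to 3 lay within the control range and rat 4 below it. The log2 fold change was -0.09 ± 0.19 (SE), with an adjusted p of 0.791 by edgeR, and it was 0.16 when total counts were used for scaling.

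The median log2 fold change was 0.56 over the 6 arms of miR-17~92 and 0.00 over the 3 of miR-106b~25, against 0.05 over all 620 miRNAs. With total counts in place of size factors, the median over all miRNAs moved to 0.31. The arms of a cluster are cut from shared transcripts and are not independent replicates.

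**Figure D2:**
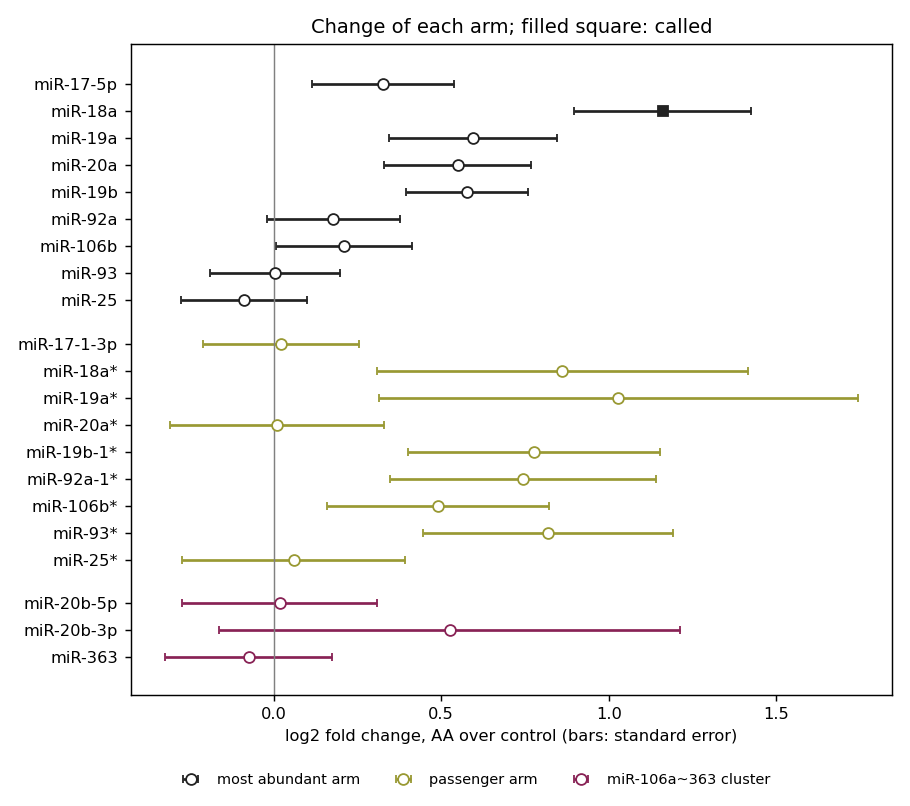
Log2 fold change (AA over control, horizontal axis) with its standard error for the 9 most abundant arms, the 9 passenger arms with at least 10 counts in total, and the 3 rows of the miR-106a cluster (miR-20b-5p, miR-20b-3p and miR-363). Only miR-18a (filled square, 1.16) was called, and the bars of the passenger arms are mostly longer than those of the abundant arms.

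Summed over its 6 abundant arms, miR-17~92 was at 21492, 19624, 22464 and 13582 normalized counts in controls and at 31071, 23984, 24078 and 23652 in AA-treated rats, a ratio of means of 1.33. The lowest AA-treated sum was above the highest control sum. The sum for miR-106b~25 was 21617, 22307, 24564 and 17643 in controls and 24875, 23753, 21832 and 16746 in AA-treated rats, a ratio of 1.01 with overlap. As a percentage of all counts of the library, which is scaling by total counts, the ratios were 1.57 for miR-17~92 and 1.20 for miR-106b~25. For miR-17~92 the percentages were 0.0809% to 0.153% in controls and 0.177% to 0.206% in AA-treated rats. Both ratios include the upward shift that total counts gave miRNAs in general, whose median moved from 0.05 to 0.31 (log2).

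Within a library, the ratio of the miR-17~92 sum to the miR-106b~25 sum does not depend on the scaling. It was 0.994, 0.880, 0.915 and 0.770 in controls and 1.25, 1.01, 1.10 and 1.41 in AA-treated rats. In every control the miR-106b~25 sum of counts was the larger, and in every AA-treated rat the miR-17~92 sum was. Different sequences may be recovered unequally, so the larger sum need not mark the more abundant cluster. The difference between the clusters was not tested, since the members and the clusters were chosen with earlier results of these data known.

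The make-up of each cluster also differed between groups for some arms. miR-18a was 1.60%, 1.53%, 1.44% and 1.55% of the miR-17~92 counts in controls, and 2.55%, 2.31%, 1.87% and 3.56% in AA-treated rats. The control shares lay in a narrow range, although the level of miR-18a itself was much lower in control rat 4. miR-20a, miR-17-5p, miR-19a and miR-19b overlapped in their shares.

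The share of miR-92a was 28.3%, 25.4%, 27.4% and 27.5% in controls and 21.0%, 23.3%, 25.4% and 23.2% in AA-treated rats. The groups met at 25.4%, where control rat 2 was above AA-treated rat 3 by less than the last digit given. In the other cluster, miR-106b made up at most 19.7% in any control and at least 20.9% in every AA-treated rat, with no overlap, whereas miR-93 (49.5% to 51.1% against 46.9% to 52.9%) and miR-25 overlapped. No test was run on these shares, which add to a fixed total within a cluster.

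**Figure D3:**
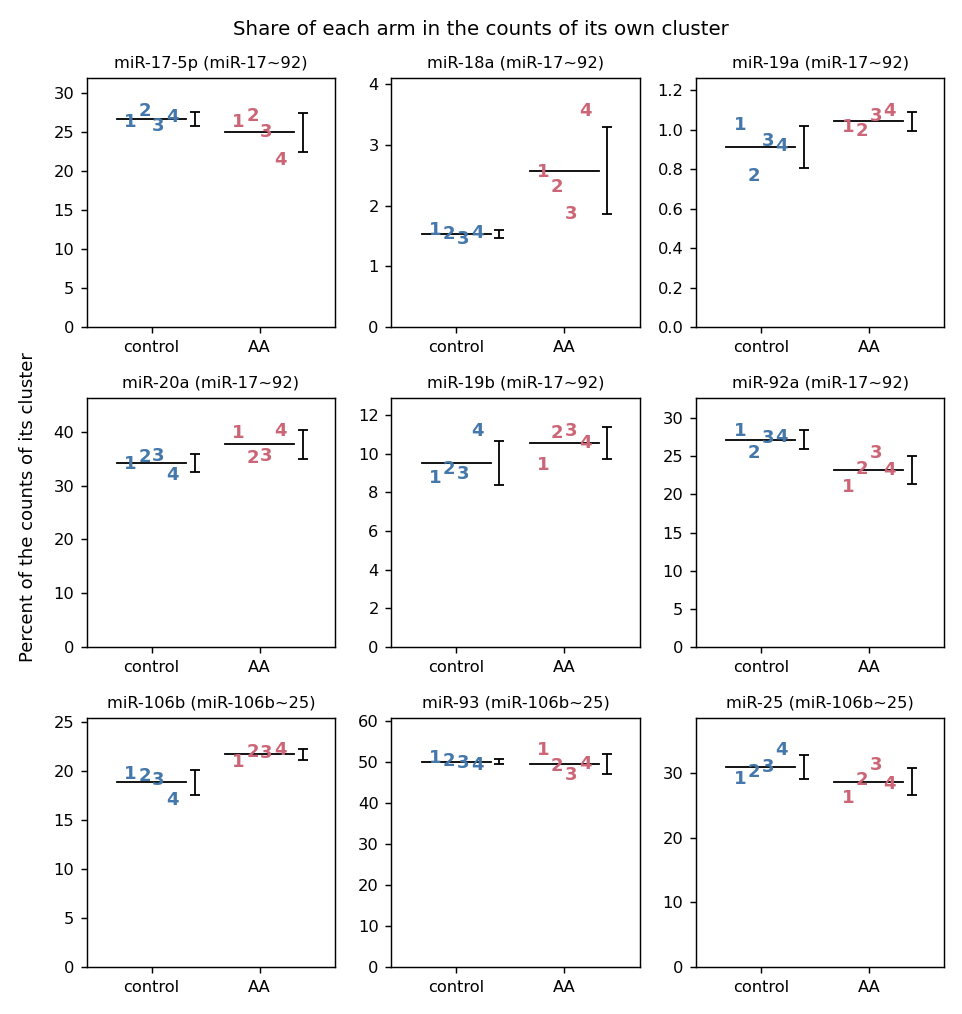
Percentage of the counts of its own cluster (vertical axes, from 0) for each of the 9 abundant arms in every rat, printed as its number, with the group mean (line) and SD (bar). miR-18a has a narrow control range (1.44% to 1.60%) below all AA-treated rats, and miR-92a lies lower in AA-treated rats.

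The passenger arms were rare. Of the 11 other arms, 9 had at least 10 counts over all rats and none of the 9 was called (edgeR quasi-likelihood test), with 1 at an unadjusted p under 0.05, against 13.9% of all miRNAs with such a p in this direction. The groups did not overlap for 2 of them, against 9.68% of all miRNAs higher in every AA-treated rat, and their median log2 fold change was 0.74, with standard errors of up to 0.71.

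miR-93* was at 14.6, 14.3, 9.48 and 8.55 normalized counts in controls and at 18.0, 17.2, 16.8 and 30.9 in AA-treated rats, so its AA-treated rats were all higher (log2 fold change 0.82 ± 0.37 SE, unadjusted p = 0.0457, adjusted p = 0.200, edgeR). Its log2 fold change was 0.45 without both rats numbered 4. miR-19b-1* was at 11.4, 9.88, 12.3 and 4.89 in controls and at 14.6, 18.0, 19.7 and 14.7 in AA-treated rats, also with no overlap (adjusted p = 0.235, edgeR). miR-18a*, the other arm of the called hairpin, was at 3.12, 6.59, 1.90 and 13.4 in controls and 8.98, 9.37, 7.89 and 17.9 in AA-treated rats. Its groups overlapped through control rat 4 alone, and the log2 fold change was 0.86 ± 0.55 (SE), with an adjusted p of 0.369 by edgeR. It was 1.51 without control rat 4 (adjusted p = 0.141, edgeR).

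The most abundant passenger arms were miR-17-1-3p, with group means of 279 ± 15.4 and 284 ± 66.7 normalized counts (SD, control and AA), and miR-106b*, with 186 ± 62.8 and 260.4 ± 123. miR-25* was at 95.3 ± 35.9 and 99.3 ± 37.2, and miR-20a* at 16.4 to 24.4 over the 8 rats. miR-92a-1* was at 13.9 ± 6.04 and 23.5 ± 7.05, and miR-19a* at 2.51 ± 1.78 and 4.98 ± 4.35. In all 6 the groups overlapped. For miR-19a* the highest value, 11.4, was that of AA-treated rat 4, and without this rat the log2 fold change moved from 1.03 to 0.22. That of miR-92a-1* moved from 0.74 to 0.38 without both rats numbered 4.

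The last 2 rows belong to hairpins of the X chromosome. miR-17-2-3p, the other arm of Mir106a, had 1 count each in control rats 3 and 4 and none elsewhere, and miR-19b-2* had 1 count in AA-treated rat 1. No fold change is given at these counts.

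The share of a hairpin's counts on its passenger arm is a ratio within a library, so no size factor enters it. The exact two-sided permutation test over the 70 labelings of the 8 rats cannot give a p below 0.0286. Adjusted over 9 hairpins, a single hairpin at this lowest p stays above 0.05. A change in 1 hairpin alone therefore could not pass, and the lack of a pass does not speak against one. None of the 9 hairpins had an adjusted p under 0.05, and 1 had an unadjusted p under 0.05. That was miR-93, with a passenger share of 0.0774% to 0.132% in controls and 0.136% to 0.372% in AA-treated rats (exact permutation p = 0.0286, adjusted p = 0.257).

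In several hairpins the share was highest in the rat numbered 4 of both groups. The miR-106b hairpin had 3.51%, 3.92%, 2.79% and 8.44% of its counts on the passenger arm in controls and 4.48%, 3.25%, 3.73% and 10.6% in AA-treated rats. The miR-17 hairpin had 4.66%, 4.55%, 4.85% and 7.27% in controls and 3.63%, 3.35%, 3.74% and 6.75% in AA-treated rats. The miR-25 hairpin had 1.22%, 1.10%, 1.03% and 2.46% in controls and 1.74%, 0.953%, 1.03% and 2.94% in AA-treated rats.

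In all 3 hairpins the rat numbered 4 was the highest of each group. Over the 9 hairpins, rat 4 had the highest passenger share in controls in 6, in AA-treated rats in 8, and in both groups in 6. Over the other 125 hairpins of the table with both arms counted, rat 4 was the highest in 32.8%, 36.0% and 17.6%, respectively. In the labels the rats numbered 4 are those described with 15 weeks of dosing.

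**Figure D4:**
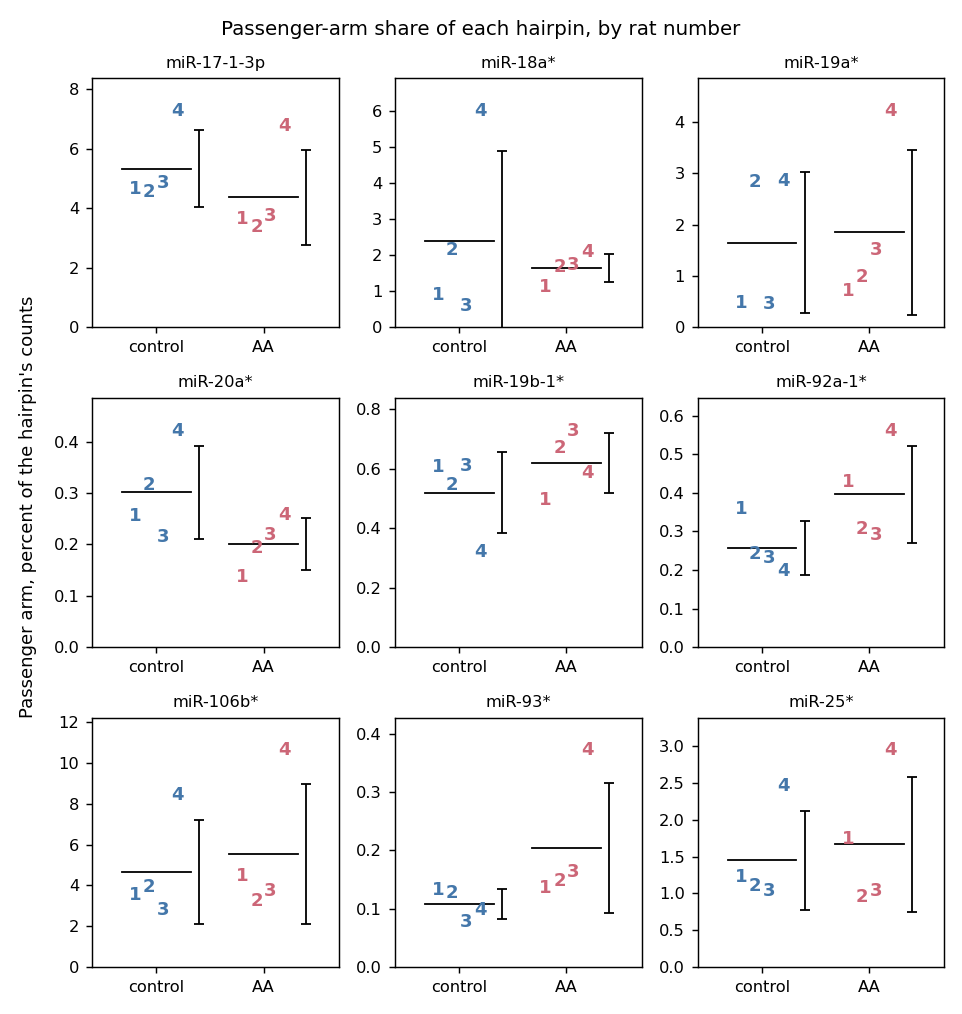
Passenger arm as a percentage of the counts of its hairpin (vertical axes, from 0) in each rat, printed as its number, for the 9 hairpins, with the group mean (line) and SD (bar). Rat 4 is the highest of both groups for the miR-17, miR-106b and miR-25 hairpins (7.27% and 6.75%, 8.44% and 10.6%, 2.46% and 2.94%).

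Counts of all miRNAs that share a seed were also summed, since these miRNAs can act on the same sites. Read counts of different sequences need not be in proportion to their amounts, so the sums and shares below are of counts only. For GUGCAAA, held only by miR-19a and miR-19b, the sums were 2095, 1957, 2226 and 1645 normalized counts in controls and 3239, 2898, 2946 and 2751 in AA-treated rats, a ratio of 1.49 with no overlap. For AAGGUGC, held only by miR-18a, the ratio was 2.24.

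For AAAGUGC, the 4 members and miR-20b-5p summed to 28347, 28046, 30775 and 19793 normalized counts in controls and 38993, 31877, 29645 and 26615 in AA-treated rats. The ratio of the means was 1.19, the groups overlapped, and the members made up 99.7% of the sum in both groups. For AUUGCAC, miR-92a, miR-25, miR-363, miR-32 and miR-92b summed to means of 19583 ± 2833 and 19032 ± 2955 (SD, control and AA), a ratio of 0.97. The members were 60.7% of this sum in controls and 64.0% in AA-treated rats.

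**Figure D5:**
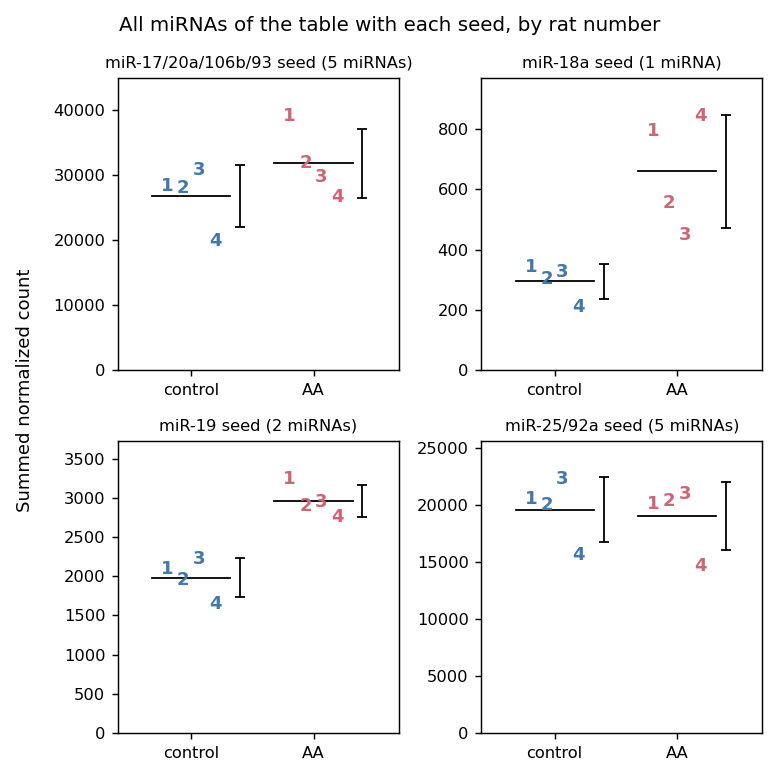
Summed normalized counts (vertical axes, from 0) of all miRNAs of the table that share each of the 4 seeds, in each rat, printed as its number, with the group mean (line) and SD (bar). The miR-18a and miR-19 seeds do not overlap between groups (ratios 2.24 and 1.49), whereas the miR-17 and miR-92a seeds do (1.19 and 0.97).

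The miR-106a cluster had 3 rows with a name of their own and none was called (edgeR). miR-20b-5p had group means of 81.1 and 82.3 normalized counts in control and AA-treated rats, with a log2 fold change of 0.02, and that of miR-363 was -0.08 (164 to 273 in controls and 183 to 278 in AA-treated rats), while miR-20b-3p was at 3.26 and 4.88. Compared with miR-17-5p, miR-20b-5p carries U10C and C12U.
miR-20b-5p: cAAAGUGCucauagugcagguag

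Of the 6 other miRNAs with a member's seed, none was called by edgeR and 1 had an unadjusted p under 0.05. miR-32 was at 7409.6 and 6555 normalized counts (log2 fold change -0.18, adjusted p = 0.637), and miR-92b at 62.2 and 84.5 (0.44, adjusted p = 0.363). miR-191*, with the seed of miR-17-2-3p, was at 25.2 and 43.9, with a log2 fold change of 0.80 and an adjusted p of 0.159 by edgeR (unadjusted p = 0.0295).

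Among 15 other miRNAs known for roles in the cell cycle, 7 were up-regulated and none down-regulated (edgeR), against 5.81% up-regulated among all miRNAs. This list was chosen with earlier results known, and it holds miRNAs that restrain as well as promote the cycle. The 7 were miR-34a, miR-34b*, miR-34c, miR-449a, miR-322 (1.80-fold), miR-503 (2.70-fold) and miR-222 (1.69-fold). The first 4 slow the cycle and rose by 10.1-fold to 21.4-fold, and miR-222 represses Cdkn1b. The groups overlapped for miR-503, which in AA-treated rat 3 was at 1200.1 normalized counts, below the lowest control (1203.5). Without control rat 1, 3 or 4, or without both rats numbered 4, 4 of the 15 were called. The other 8 were not called, among them miR-26a and miR-26b, which were lower in every AA-treated rat than in every control (log2 fold changes -0.45 and -0.39), against 6.61% of all miRNAs.

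Markers of other cell types were also counted. Of 5 leukocyte miRNAs, 2 were up-regulated (edgeR), miR-142-3p 2.67-fold and miR-223 1.94-fold, against 5.81% of all miRNAs. Of the 5, 3 were higher in every AA-treated rat, against 9.68% of all miRNAs, namely these and miR-150 (log2 fold change 0.52). miR-142-5p and miR-146a were not called (0.26 and -0.14). The summed level of the 5 was 31909 to 42211 normalized counts in controls and 48745 to 77012 in AA-treated rats, and none of the 5 was at 0. Only 1 was called without control rat 1, 2 or 3. White blood cells also express miR-17~92, and their part in the levels of miR-18a and miR-19 was not tested.

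Of 2 red cell miRNAs none was called (sums of 6910.1 to 11910 in controls and 2172 to 8116 in AA-treated rats), nor was miR-126 of endothelium. Of 5 fibroblast and smooth muscle miRNAs none was called, and they did not move alike. miR-199a-3p was at 1.51 times the control mean (adjusted p = 0.067, edgeR). The means of miR-199a-5p (1.66), miR-214 (1.35) and miR-145 (1.16) were also higher, whereas that of miR-143 was lower (0.752). In all of these but miR-199a-3p the groups overlapped. Of 4 kidney tubule miRNAs, 1 was down-regulated, against 3.23% of all miRNAs, namely miR-204 at 0.552 times the control mean. miR-204 and miR-194 were lower in every AA-treated rat, against 6.61% of all miRNAs. miR-194 was at 0.587 times the control mean (adjusted p = 0.0515, edgeR). miR-192 (0.557) and miR-30a (0.859) had lower means in AA-treated rats, but their groups overlapped. None of the 4 was at 0. Over the alternative settings 0 to 2 were called in each of these last lists of 5 and 4, and the call of miR-204 was lost with TMM or total counts, and without control rat 1, 2 or 4, AA-treated rat 3 or both rats numbered 4.

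Other miRNAs whose levels followed the clusters across the 8 rats were found by the root mean square difference of log2 normalized counts, centred on the control mean, from the mean profile of the abundant arms. Among 292 miRNAs with at least 10 counts in every rat, the 5 nearest to miR-17~92 were let-7a (0.156), let-7b (0.163), let-7c (0.170), miR-872 (0.176) and miR-24-2* (0.189), where the median candidate was at 0.637. The 5 nearest to miR-106b~25 were miR-532-5p (0.0796), miR-130a (0.132), miR-29a (0.139), miR-145* (0.139) and miR-674-3p (0.149), with a median of 0.483. None of these 10 was called. Without both rats numbered 4, 0 of the first 5 and 1 of the second 5 (miR-532-5p) were still among the nearest.

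By the same measure the members themselves lay at 0.0815 (miR-20a) to 0.450 (miR-18a) from the mean of miR-17~92, and at 0.0649 (miR-93) to 0.139 (miR-106b) from that of miR-106b~25. miR-18a, miR-92a (0.275) and miR-17-5p (0.216) were farther from the mean of their own cluster than any of the 5 named non-members. Those 5 were picked as the nearest of 292 by this same measure. The median candidate, at 0.637, was farther than each of these members. Each member is itself part of the mean it was compared with, which draws it nearer, whereas the candidates are not.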

How the data were processed

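Small RNA libraries of 4 AA-treated and 4 control kidneys, 1 per rat, were sequenced from cDNA cut from a gel at 22 to 30 bases of insert, so that 5 of the 20 members, of 20 or 21 bases, are shorter than this range. CASAVA 1.7 is named in the submitters' processing notes. The authors deposited whole-number read counts per mature miRNA of miRBase release 16, assigned with the default parameters of miRanalyzer, neither normalized nor pooled. The sample titles gave the group and number of each rat.

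All 620 rows entered one quasi-likelihood fit in edgeR 4.0.16 (R 4.3.3), scaled by median-of-ratios size factors and without a covariate. Normalized counts are counts over these factors. Called means an adjusted p under 0.05 (Benjamini-Hochberg) and a ratio of mean normalized counts over 1.5. Standard errors were computed from the F statistic. The test was tested on simulated counts. Arm shares were compared with exact permutation tests, for hairpins with at least 10 passenger counts.

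The members and lists were chosen with earlier results of these data known. Named were all member rows, the rows of the miR-106a cluster, all rows with a member's seed, the 5 nearest non-members per cluster, and the called miRNAs of the cell cycle list. Other miRNAs of the comparison lists, such as miR-26a, miR-26b, miR-150 and miR-199a-3p, were chosen after their values were seen. miR-15a, miR-155 and miR-486 are not analysed here. No libraries of a group agreed within sampling noise. Each library came from a rat of its own, so the p-values measure the spread between rats together with that between library preparations. These cannot be told apart.

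Deviations from the group means correlated between same-numbered rats at 0.337, 0.519, 0.215 and 0.454 for numbers 1 to 4 over 305 miRNAs with at least 10 counts in every rat, so a replicate block was also fitted. Over 370 miRNAs with a mean of at least 10 they were -0.0112, 0.143, 0.124 and 0.337. The numbers come from the labels, and same-numbered rats are different animals. Alternatives were TMM, total counts, DESeq2 1.42.0, limma-voom (limma 3.58.1), robust moderation, 2 low-count filters, 2 other fold criteria, the block, and fits without each rat in turn or without the pair numbered 4. Leaving out both rats numbered 4 for the nearest miRNAs, the alternatives for the comparison lists, and those for the groups without overlap were chosen after seeing the data.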

Additional observations from a re-analysis of the deposited data

Results flagged for a closer look

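Of 54 groups of 4 rats examined (the 18 miRNAs and 9 passenger shares of both clusters), 10 had a rat farther from the others than Dixon's 95% limit allows, where chance flags about 1 in 20. In all 10 it was a rat numbered 4. The groups come from the same libraries, and the shares from the same counts as the miRNAs. They are therefore not independent, and their number cannot be set against that rate as separate trials. Among abundant arms, control rat 4 had 3664 normalized counts of miR-17-5p, with the next control at 5442, and AA-treated rat 4 had 4757 of miR-25, with the next at 6533. Among passenger arms, AA-treated rat 4 had 17.9 of miR-18a* (next 9.37) and 30.9 of miR-93* (next 18.0), and control rat 4 had 149 of miR-25* (next 79.6).

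The passenger share of the miR-17 hairpin was 7.27% in control rat 4 (next 4.85%) and 6.75% in AA-treated rat 4 (next 3.74%). In AA-treated rat 4 it was 10.6% for miR-106b (next 4.48%) and 0.372% for miR-93 (next 0.163%), and in control rat 4 it was 2.46% for miR-25 (next 1.22%).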

How the results depend on the processing

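miR-18a was called under every setting run, with a log2 fold change of 0.90 to 1.41, and the number of members called stayed at 1 when any single rat was left out (1 to 1). It was 2 with TMM (miR-18a and miR-19b), 3 with total counts (also miR-20a) and 2 among miRNAs with at least 10 counts in every rat (miR-18a and miR-19b). With total counts the median of all miRNAs moved from 0.05 to 0.31. miR-19b had an adjusted p under 0.05 in 7 of 17 settings, from 0.00318 (DESeq2) to 0.190 (a rat left out). The replicate block left 1 member called, moved the adjusted p of miR-19b to 0.0335 and changed no other member's call. All differences that turned sign were uncalled. miR-93 turned to -0.0084 with limma-voom and -0.0064 with the block, and miR-25 to 0.16 with total counts. miR-17-1-3p turned to -0.0077, -0.0059 and -0.10, and miR-20a* to -0.0043, -0.0051 and -0.14, with limma-voom, the block and without both rats numbered 4, where the AA minus control arm share became 0.295 points for miR-18a and -0.187 for miR-19a. With single rats left out, log2 fold changes ranged from -0.10 to 0.12 for miR-93, -0.15 to 0.028 for miR-25, -0.12 to 0.12 for miR-17-1-3p, -0.13 to 0.083 for miR-20a* and -0.17 to 0.35 for miR-25*. Arm share differences then ranged from -1.37 to 0.440 points for miR-18a, -0.588 to 0.601 for miR-19a, -0.843 to 2.12 for miR-106b and -0.211 to 0.549 for miR-25. No hairpin passed in any setting. With all rats and no block, a single changed hairpin could not pass after adjustment. With a rat left out (smallest p 0.0571) or blocked (0.125) none could. The nearest miRNAs without both rats numbered 4 kept 0 of 5 for miR-17~92 and 1 of 5 for miR-106b~25. Depth limited the passenger arms, of which miR-19a* had 32 counts in all.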
